A study of Oryza sativa Japonica Group with 27 samples.

Results

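The transcripts described here are the 200 most abundant of those whose identifier ends in the suffix 00, out of 12005 with that suffix and 42132 transcripts in the count tables. They were ranked by the raw count summed over the 14 libraries read with the standard sequencing primer, so their abundance is a description and not a finding. In the rice locus identifiers of this form the digits after OS name the chromosome, and the suffix 00 is given to transcripts that were predicted by computation. The 200 members came from 200 loci, each listed with 1 transcript. None of the 200 could be matched to a gene symbol or product, so they are named by identifier and no role is given to any of them. Any sharing of sequence between members could not be read either, and no sequence was used.

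The libraries were made by Structure-seq2 from shoots of 14-day-old rice plants (Oryza sativa japonica, cultivar Nipponbare), with poly(A) selection of the RNA. In this assay dimethyl sulfate (DMS) enters living tissue and methylates unpaired adenines and cytosines, reverse transcription stops before a methylated base, and an adapter is ligated to the 3′ end of the cDNA so that the stop can be read by sequencing. A count per transcript is therefore the number of cDNA ends assigned to it and not a direct measure of RNA amount. Longer transcripts can give more ends, and since no lengths were used the counts are compared between libraries and not as levels between transcripts. All libraries shared reverse transcription with SuperScript III. The standard protocol purified the cDNA by polyacrylamide gel electrophoresis (PAGE) after reverse transcription and after ligation, ligated with T4 DNA ligase and amplified with Q5 polymerase. It had 2 libraries without DMS (-DMS) and 2 with DMS (+DMS). The biotin variation added biotin and replaced both gels by streptavidin purification, again with 2 libraries -DMS and 2 +DMS, so that biotin and streptavidin changed together. A further 6 libraries, all -DMS and 1 of each kind, changed a step of the standard protocol. They were biotin only (biotin added, PAGE kept), Ex Taq in place of Q5, Circligase in place of T4 DNA ligase, low RT denaturation (65 °C without salt in place of 90 °C with salt), low RT reaction (50 °C in place of 55 °C) and agarose in place of the final PAGE. Of the 14 libraries, 13 were also read with a custom sequencing primer, all but Circligase. The labels number replicates without saying whether they came from separate plants, so the spread between them may be technical. In whole shoots, fewer cells of a type and less RNA per cell cannot be told apart.

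Depth was low. The 14 standard-primer totals lay between 29777 and 410068 counts, and the 13 custom-primer totals between 27118 and 468337. The shallowest library with either primer was biotin variation -DMS replicate 1, in which 116 of the 200 members had a count with the standard primer and 25 had 10 or more, against a median of 195.5 members detected. Counts of called members in the biotin variation are given with and without it.

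The 200 members held 93892 counts, 3.39% of all standard-primer counts and 60.9% of the counts of transcripts with suffix 00. Abundance was uneven among them. The most abundant 10 held 40.6% of the members' counts and the most abundant 15 held 49.8%, whereas the median member had 197 counts. The highest was OS10T0356000-00 with 4715 counts. At the limit of the ranking OS01T0629750-00 and OS04T0428950-00 had 108 counts each, and the first transcripts left out, OS08T0564750-00 and OS07T0669200-00, had 108 (a tie resolved by identifier) and 107. Every member had a count in at least 8 of the 14 libraries and 89 had one in all 14. Members lay on all 12 chromosomes, from 6 on chromosome 9 to 36 on chromosome 1. Chromosome 1 carried 18% of the members and 13.04% of the listed transcripts with suffix 00.

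The members' share of a library differed up to 1.83-fold between libraries with the standard primer and 1.22-fold with the custom primer. With the standard primer the median share was 3.23%. The lowest was 2.60% in biotin variation +DMS replicate 2 (95% Wilson interval 2.52 to 2.68) and the highest was 4.75% in Circligase (4.65 to 4.85). Ex Taq, with 4.36%, biotin only, with 3.95%, and low RT denaturation, with 3.59%, were also above the median. Shares of both standard -DMS replicates were 3.38% and 2.88%, those of standard +DMS were 3.69% and 3.02%, those of biotin variation -DMS were 3.02% and 2.78%, and those of biotin variation +DMS were 2.63% and 2.60%. The ranges of the standard libraries with and without DMS overlapped, and the lowest standard -DMS library was below the highest biotin variation -DMS library. With the custom primer the median over 13 libraries was 2.68%, and shares ran from 2.52% in standard -DMS replicate 2 to 3.07% in biotin only. In the same standard-primer libraries the 200 most abundant transcripts with other suffixes held 26.3% to 40.0%. These intervals cover counting error only, since PCR copies are not independent molecules.

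Most of the spread between libraries came from a few members. The most abundant 10 held from 0.649% of a library, in biotin variation +DMS replicate 2, to 2.69%, in Circligase, whereas the other 190 held 1.81% to 2.37%. Within the most abundant 15, 5 members rose and fell in much the same libraries: OS02T0668350-00, OS06T0151850-00, OS01T0666101-00, OS06T0163450-00 and OS06T0199050-00, a set chosen after its values were seen. Together they held 2.42% of Circligase, 1.55% of Ex Taq and 1.13% of low RT denaturation, but 0.0904% and 0.0744% of the standard +DMS libraries. Their lowest share was 0.0693%, in biotin variation +DMS replicate 2. Low shares were not limited to DMS, with 0.165% in biotin variation -DMS replicate 1 and 0.220% in agarose, beside 0.350% and 0.245% in standard -DMS. Without these 5, the members held 2.33% of Circligase, the lowest of the 14 libraries, and 3.60% of standard +DMS replicate 1, the highest. The order of the libraries by the members' share is thus set by these 5 transcripts at its upper end, with Circligase moving from highest to lowest when they are left out.

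**Figure D1:**
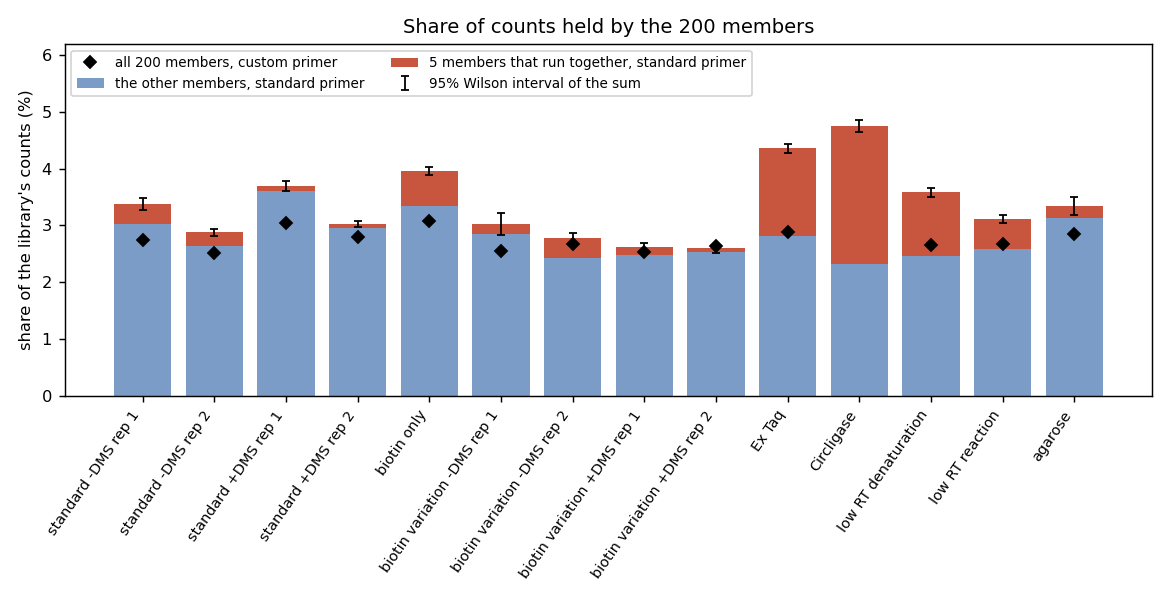
Share of each library's counts held by the 200 members (percent, vertical axis) in the 14 libraries; bars show the standard primer, split into the 5 members that run together and the other members, with 95% Wilson intervals of the sum, and diamonds show the custom primer (13 libraries, none for Circligase). The 5 members make up 2.42% of Circligase and 1.55% of Ex Taq but at most 0.0904% of the standard +DMS libraries. Their share is also low in biotin variation +DMS replicate 2 (0.0693%) and, without DMS, in biotin variation -DMS replicate 1 (0.165%). Custom-primer shares of the 200 members lie between 2.52% and 3.07%.

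Groups of near-equal counts were then sought, since counts of transcripts that share reads are uncertain. How reads that match several transcripts were counted is not given in the sources used here, and its part in the results below was not tested. Counts were called near-equal when the summed absolute difference over the 14 standard-primer libraries was at most 0.05 of the summed counts of both transcripts. By this limit 21 of the 200 members (10.5%) fell into 17 groups with transcripts of other loci. Among the 4233 transcripts with other suffixes in the same range of counts, 145 (3.43%) had such a partner. The contrast depended on a strict limit. At 0.02 the shares were 7% of members and 1.42% of the others, but at 0.10 they were 47.5% of members and 52.6% of the others, and the median dissimilarity to the nearest transcript of another locus was 0.102 and 0.0985. The 17 groups held the 21 members and 19 transcripts with other suffixes. In 4 groups all transcripts were members, and 11 groups had 2 transcripts and 6 had 3. Transcripts of 13 groups were spread over different chromosomes, and 3 groups paired chromosome 11 with chromosome 12.

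The most abundant group paired the members ranked 1 and 3, OS10T0356000-00 on chromosome 10 and OS12T0207600-00 on chromosome 12. Their standard-primer counts were 226 and 225 in standard -DMS replicate 1, 998 and 973 in standard +DMS replicate 2, 637 and 615 in Ex Taq, and 181 and 181 in Circligase. The largest gap in any library was 25 counts, and the dissimilarity was 0.0126. In the second group, OS06T0151850-00 on chromosome 6 and OS01T0666101-00 on chromosome 1 had the same count in 12 of the 14 libraries, with totals of 3682 and 3678 and a largest gap of 3 counts. Counts were the same in all 14 libraries for OS08T0332150-00 and OS01T0561500-01, which lie on different chromosomes and had 139 counts each. OS12T0576100-00, with 415 counts, matched OS12T0575300-01 and OS12T0575400-01, with 432 each, all 3 on chromosome 12. On chromosome 8, OS08T0468700-00, with 774 counts, matched both listed transcripts of the locus OS08T0468100, with 845 and 762. The close identifiers OS10T0356000-00 and OS10T0355800-00 on chromosome 10 were each near-equal to 1 of the pair OS12T0207600-00 and OS12T0207500-00 on chromosome 12.

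The custom-primer counts, which the grouping had not used, were less alike. The dissimilarity was higher with the custom primer than with the standard primer in 17 of 17 groups, with a median of 0.198 against 0.0164. Since groups were picked for a low standard-primer dissimilarity, a higher value in a second reading follows in part from that choice. Pairs outside the groups were not set beside them. The custom-primer value was 1 in the group of OS06T0219500-00, with 13 custom-primer counts, and in that of OS09T0306500-00, with 0. For OS10T0356000-00 and OS12T0207600-00 the custom-primer totals were 3054 and 1958, and their dissimilarity rose to 0.219. For OS06T0151850-00 and OS01T0666101-00 the totals were 1499 and 1471, with a dissimilarity of 0.0310 and the same count in 1 of 13 libraries. A single transcript of a group had a median of 0.525 of its standard-primer level with the custom primer, where a level is the mean share of counts over the 13 libraries read with both. When the custom-primer levels of a group were summed and set against the standard-primer level of 1 of its transcripts, on average, the median ratio was 1.08, with a range of 0.0620 to 1.90. The summed ratio was 0.979 for OS10T0356000-00 with OS12T0207600-00 and 0.989 for OS06T0151850-00 with OS01T0666101-00.

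**Figure D2:**
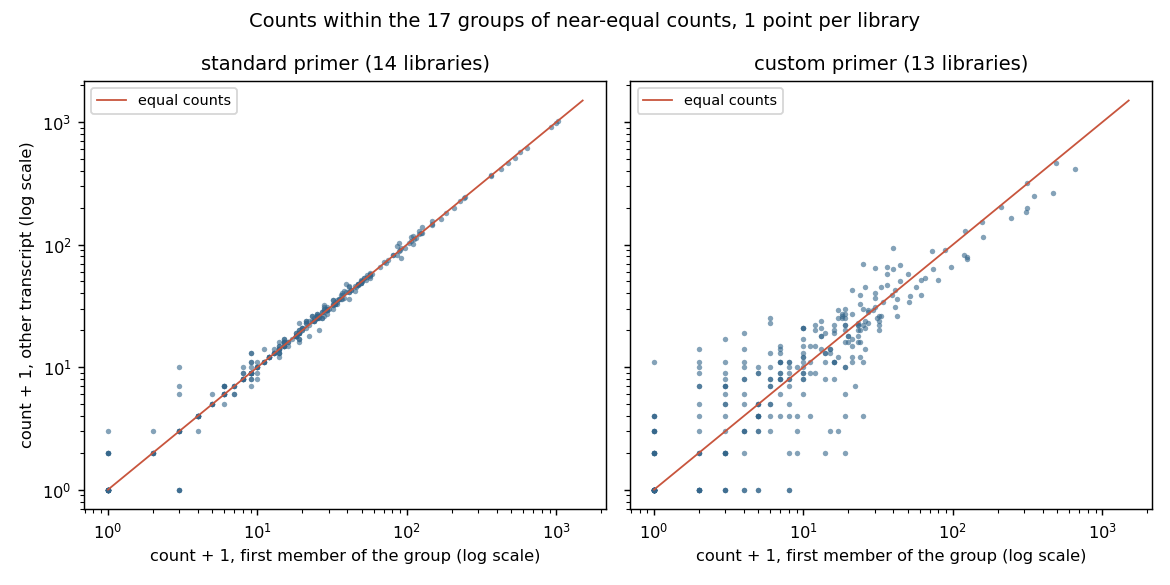
Counts plus 1 within the 17 groups of near-equal counts on log axes, with the first-listed member of a group on the horizontal axis, the other transcripts of other loci on the vertical axis and 1 point per library; the left panel shows the standard primer, on which the groups were chosen, and the right panel the custom primer. Points hug the line of equal counts on the left (median dissimilarity 0.0164) and scatter around it on the right (median 0.198).

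Levels with the custom primer differed widely between members. The median ratio of custom-primer to standard-primer level was 0.886 over the 200 members, with quartiles of 0.503 and 1.57. It was 0.504 for the 21 members with a near-equal transcript and 1.04 for the 179 without. The 4233 transcripts with other suffixes in the same range of counts had a median of 0.921, and the 1729 of those whose locus lists 1 transcript, as every member's does, had 1.501. Ratios of members without a near-equal transcript were spread over a broad range with few just above 1. Of all members 35 had a ratio between 0.5 and 0.75, 16 between 1 and 1.33, and 69 between 1.33 and 2. Since a level is a share of its own reading, ratios say how a transcript changed relative to the rest of the table. The highest ratios were 2.31 for OS06T0164500-00, with 115 and 256 counts, and 2.22 for OS02T0187700-00, with 144 and 283.

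**Figure D3:**
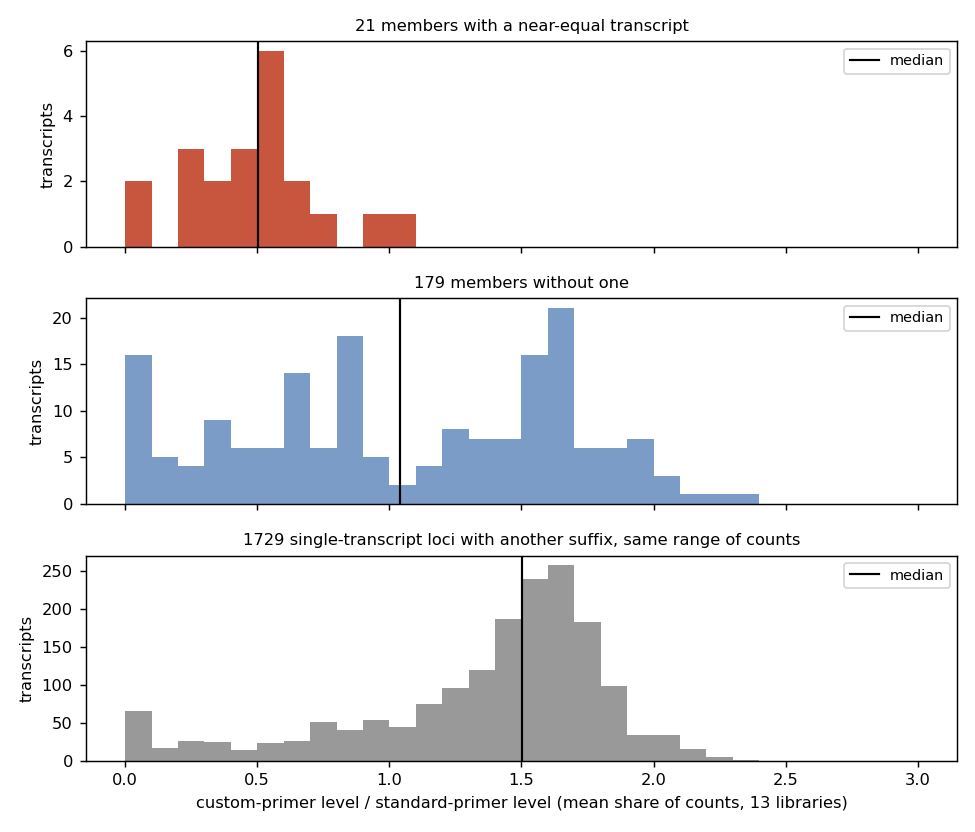
Number of transcripts (vertical axes) by ratio of custom-primer to standard-primer level (horizontal axis, mean share of counts over 13 libraries) for members with a near-equal transcript, members without one, and single-transcript loci with other suffixes in the same range of counts; black lines mark the medians. The medians are 0.504, 1.04 and 1.501, and members are found both near 0 and around 1.6.

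At the low end, 19 of the 200 members (9.5%) had a custom-primer level below 1/8 of the standard-primer level. Over all transcripts with at least 50 standard-primer counts the same was true of 2.91%, and over transcripts with other suffixes in the members' range of counts of 3.05%. These shares are descriptions, since the members were chosen on the standard-primer counts. There were 7 members with no custom-primer count in any library, led by OS12T0169950-00, with 303 standard-primer counts, and OS01T0157500-00, with 217. The total of custom-primer counts over 13 libraries was 3011972, so a count of 0 allows a level of up to 0.996 CPM (counts per 1000000) of that total. The most abundant of the 19 was OS02T0668350-00, with 4087 standard-primer and 312 custom-primer counts and a ratio of 0.0896. Its companions in the set of 5 had higher ratios, of 0.493 for OS06T0151850-00, 0.496 for OS01T0666101-00, 0.655 for OS06T0163450-00 and 0.247 for OS06T0199050-00.

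Many of the members low with the custom primer had standard-primer counts in the same libraries. After their values had been seen, 12 of the 19 were found to follow 1 of 2 library patterns, each taken from the most abundant members with no custom-primer count and defined by a profile difference of at most 0.15, which is the share of a transcript's counts that would have to move between libraries to match the other profile. The first pattern held 6 of them, OS01T0157500-00, OS06T0219500-00, OS09T0306500-00, OS02T0159100-00, OS06T0264750-00 and OS01T0614750-00. Each had 11 to 40 counts in standard -DMS replicate 1 and 0 to 2 in replicate 2. All 6 were at 0 in biotin variation -DMS replicate 1, biotin variation +DMS replicate 2 and Circligase, and had 34 to 109 counts in Ex Taq. Replicates of a kind therefore lay apart in this pattern, with summed counts of 134 and 5 in standard -DMS, 169 and 42 in standard +DMS, and 0 and 113 in biotin variation -DMS.

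The second pattern held OS12T0169950-00, OS01T0627933-00, OS03T0721900-00, OS06T0298000-00, OS04T0616100-00 and OS02T0773600-00. Each had 12 to 50 counts in standard -DMS replicate 1, 13 to 47 in replicate 2 and 31 to 76 in low RT reaction. Counts were 0 to 3 in biotin variation +DMS replicate 1, 0 to 2 in replicate 2, 0 to 2 in low RT denaturation and 0 to 3 in Circligase. In standard +DMS the replicates again lay apart, with summed counts of 20 and 283. Neither pattern was particular to the members, and how many of the other transcripts in them carry suffix 00 was not counted. Among transcripts with at least 50 counts the first was shared by 86 transcripts that are not members and the second by 60, and transcripts of the first came from 12 chromosomes. With the custom primer 62 of the 93 transcripts of the first pattern (66.7%) and 54 of the 67 of the second (80.6%) were below 1/8. The limit of 0.15 was set after the data had been seen, and these counts move with it. At 0.10 they were 48 of 65 and 4 of 6, and at 0.20 they were 65 of 119 and 91 of 137, with 7 and 12 of the 19 low members in the patterns. What the transcripts of a pattern have in common beyond these counts was not tested.

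**Figure D4:**
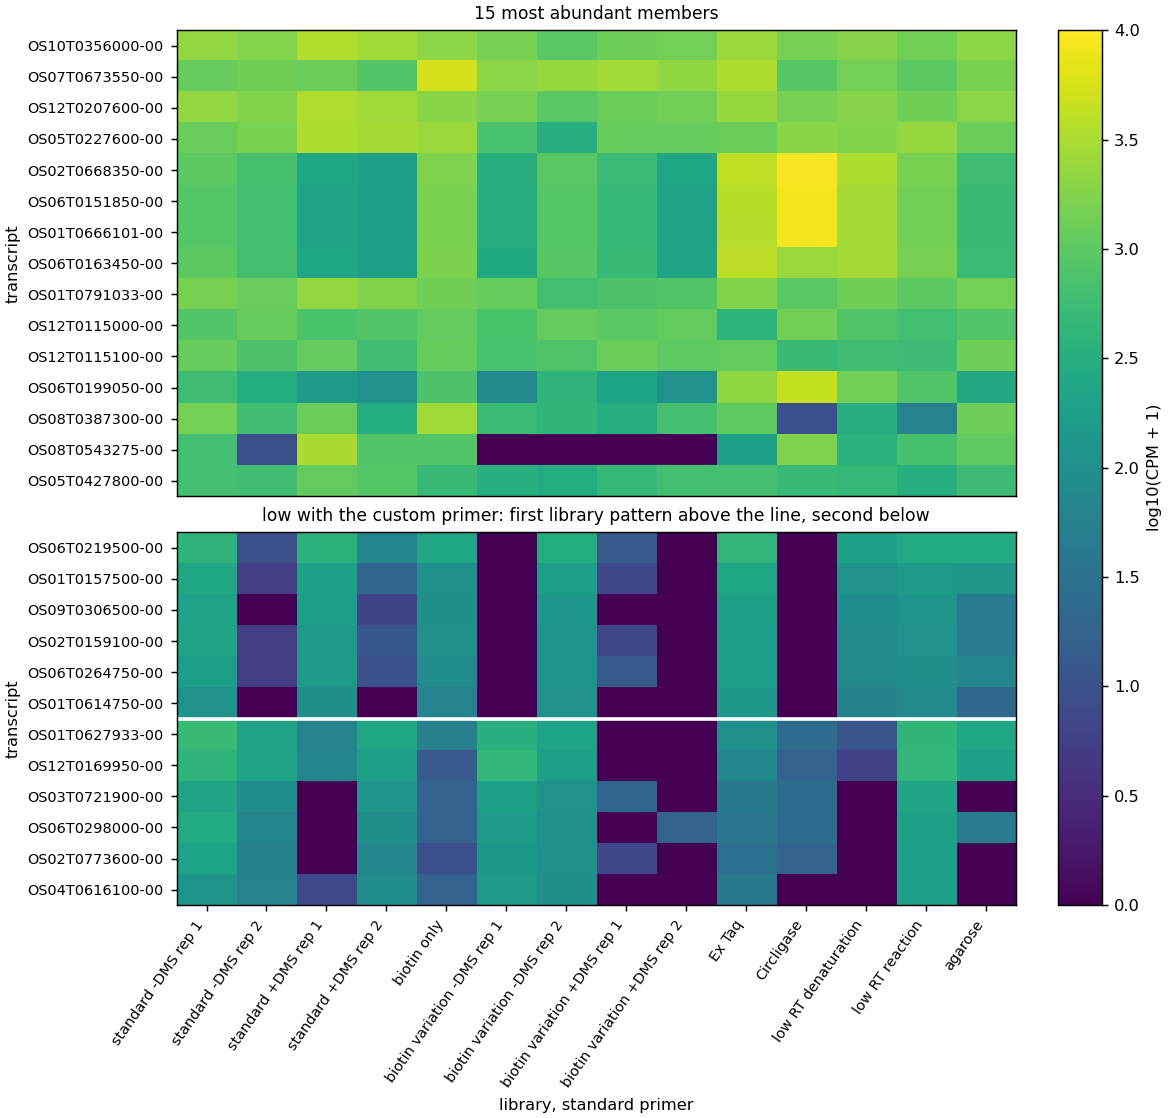
Level of members in the 14 standard-primer libraries as log10(CPM + 1) (colour), for the 15 most abundant members (upper panel) and the 12 members low with the custom primer that share 1 of 2 library patterns (lower panel, first pattern above the white line). OS08T0543275-00 is at 0 in the 4 biotin variation libraries, and the first pattern is at 0 in biotin variation -DMS replicate 1, biotin variation +DMS replicate 2 and Circligase.

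DMS in the standard protocol was tested next, since a modified base ends the cDNA and could move the counts of a transcript. The median log2 change of the 200 members was 0.01 and that of all 7636 transcripts tested was -0.01. With edgeR's quasi-likelihood test over all transcripts and an adjusted p under 0.05, 6 members (3%) fell, beside 0.825% of all transcripts tested, and 0 rose, beside 0.0524%. DESeq2 also called 0 higher. By edgeR 11 members were higher at an unadjusted p under 0.05, beside 247 of all transcripts tested (3.23%). Changes of the 6 that fell lay between -2.34 and -4.18 on the log2 scale. Members were picked for high summed counts, whereas the transcripts tested include less abundant ones. Shares of calls here and in the comparisons below are thus not matched for counts, and a matched share was not computed.

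OS08T0468700-00 had 53 and 106 counts in the -DMS libraries and 7 and 5 in the +DMS libraries, or 488 ± 51.4 and 30.1 ± 22.9 CPM scaled by the trimmed mean of M-values, as are all CPM below (SD, n = 2 each). It fell by 4.18 on the log2 scale (SE 0.638, edgeR adjusted p = 0.00188). Its standard-primer counts were near-equal to those of both transcripts of OS08T0468100, whereas its custom-primer total was 215 beside their 414 and 283, and whether reads were shared was not tested. OS02T0765900-00 went from 46 and 69 counts to 6 and 5, and it fell by 3.93 (SE 0.714, edgeR adjusted p = 0.00800). Its custom-primer total was 34 beside 463 with the standard primer, a ratio of 0.0645, and it did not pass the filter for a test there. Both calls were lost without standard +DMS replicate 2, with edgeR adjusted p of 0.132 and 0.273, and no member was called in that fit. OS02T0668350-00, of the set of 5, went from 101 and 160 counts to 34 and 69. Its log2 change was -2.01 (SE 0.483) with an edgeR adjusted p of 0.0507, past the threshold in 4 of 12 alternative fits. The most abundant member, OS10T0356000-00, had higher counts with DMS, 527 and 998 beside 226 and 426, a log2 change of 0.63 with an edgeR adjusted p of 0.694 that passed in 0 of 12 alternatives.

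DMS in the biotin variation gave a median log2 change of 0.61 over the members and 0.65 over all transcripts tested, so values below are to be read against that shift. With other scalings the median of all transcripts was 0.34 (relative log expression) and 0.17 (library totals alone). By edgeR, 3 members rose (1.5%, beside 0.367% of all transcripts tested) and 2 fell (1%, beside 0.668%). With library totals alone 1 rose and 3 fell, and with relative log expression 2 rose and 3 fell. For these and the following alternative fits the share over all transcripts is not given, so their counts describe the fits and not the members. None of the 5 calls was made without biotin variation -DMS replicate 1, the shallow library, nor without either +DMS library, and 20 were made without -DMS replicate 2.

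OS01T0933200-00 went from 0 and 1 counts to 29 and 33, a ratio of pooled CPM of 35.9 with an exact counting interval of 6.22 to 1442 (edgeR adjusted p = 0.0253). Without -DMS replicate 2, the library that holds the 1 count, it was at least 2.996-fold higher when the remaining -DMS library is set to 3 counts. In the standard protocol its counts went from 8 and 29 to 33 and 80, and its log2 change of 1.07 had an edgeR adjusted p of 0.658. OS05T0574300-00 went from 1 and 1 counts to 24 and 26, a ratio of 14.5 with an exact counting interval of 3.81 to 123. The ratio was 22.0 without -DMS replicate 1 and 6.98 without -DMS replicate 2. Its edgeR adjusted p was 0.0489, and it passed in 0 of 11 alternative fits, which gave 0.0532 to 0.279. Those that fell were OS12T0169950-00, with 17 and 20 counts without DMS, and OS01T0627933-00, with 13 and 25, both at 0 in both +DMS libraries. They were named after their values were seen, because their mean counts are low. Taken against 3 counts over both +DMS libraries they were at least 27.9-fold and 24.995-fold lower (edgeR adjusted p = 0.0139 and 0.0232). The bounds were 15.1-fold and 18.9-fold without -DMS replicate 1, the shallow library, and 11.6-fold and 10.4-fold without +DMS replicate 1, and neither transcript was called in either fit. Without DMS they were also low in Circligase, with 2 and 3 counts, and in low RT denaturation, with 1 and 2, but had 76 and 71 in low RT reaction. Both belong to the second library pattern, which was taken from OS12T0169950-00 itself. Of the 51 transcripts called lower in this comparison, 31 belong to that pattern at its limit of 0.15, 4 at 0.10 and 42 at 0.20. The pattern was defined on the same standard-primer counts as this test, from a transcript at 0 in both biotin variation +DMS libraries. This overlap is therefore built in and is no separate result.

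The DMS effect itself differed between the protocols for 1 member by edgeR (0.5%, beside 0.236% of all transcripts tested in that direction), and for 0 in the other direction, beside 0.0%. In that other direction 8 members had an unadjusted p under 0.05 by edgeR, beside 227 of all transcripts tested (2.97%), and DESeq2 called 2. The member was OS08T0468700-00, with 0 and 0 counts in biotin variation -DMS and 3 and 6 in +DMS, against the fall from 53 and 106 to 7 and 5 in the standard protocol. The difference of log2 changes was 9.71 (SE 1.81, edgeR adjusted p = 0.0228), a fitted value that depends on how counts of 0 are treated and is no bound. It passed in 9 of 16 alternative fits. The absence in biotin variation -DMS was not matched in biotin only, which had 85 counts.

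Streptavidin purification with added biotin was compared with the standard protocol over 8 libraries, with DMS as a covariate. The filter removed 1 member. By edgeR, 8 of the others were higher in the biotin variation (4.02%, beside 4.96% of all 6166 transcripts tested) and 12 were lower (6.03%, beside 4.57%), shares close to those of the whole table. Median log2 changes were -0.05 for members and -0.18 for all transcripts. The split moved with the scaling, to 8 higher and 26 lower with relative log expression and to 8 and 20 with library totals alone, where the medians of all transcripts were -0.39 and -0.35. Without biotin variation -DMS replicate 1 the counts were 26 higher and 30 lower, and without -DMS replicate 2 they were 2 and 3. Shares over all transcripts are not set beside the counts of these alternative fits, so they describe the fits and not the members.

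The member with the largest fall was OS08T0543275-00, ranked 14. It had 65, 2, 475 and 294 counts in the standard libraries and 0 in each of the 4 biotin variation libraries, so the groups did not overlap, although standard -DMS replicate 2 with 2 counts was near the floor. Against 3 counts over the 4 libraries it was at least 164-fold below the mean of the standard libraries, 1152 ± 1371 CPM (SD, n = 4). That mean pools libraries with and without DMS, and the bound leaves out the spread between libraries. The transcript had an edgeR adjusted p of 0.00365 and passed in 15 of 15 alternative fits. The bound rests largely on standard +DMS replicate 1, without which it was 69.6-fold, and it lay between that and 218-fold when each of the 8 libraries was left out in turn. Biotin only, purified by PAGE, had 204 counts and Circligase 198. With the custom primer the 4 biotin variation libraries were also at 0, beside 6, 6, 30 and 38 counts in the standard libraries. That is a second reading of the same libraries and not a replicate. OS08T0543275-00 is also among the members low with that primer, with 110 counts beside 1523 and a ratio of 0.0661. OS03T0755625-00 had 20, 51, 21 and 34 counts in the standard libraries and 0, 1, 1 and 4 in the biotin variation, or 162 ± 56.0 and 12.6 ± 15.7 CPM (SD, n = 4 each). It fell by 3.30 on the log2 scale (SE 0.702, edgeR adjusted p = 0.0133, and 0.0534 without biotin variation -DMS replicate 2), and had 28 counts in biotin only.

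In the other direction OS06T0214850-00 had 10, 16, 6 and 12 counts in the standard libraries and 7, 47, 45 and 15 in the biotin variation, 60.0 ± 30.0 and 250.0 ± 116 CPM (SD, n = 4 each). That is 2.30 on the log2 scale (SE 0.478; adjusted p by edgeR 0.0129), and biotin only had 22 counts, or 92.8 CPM, within the range of the standard libraries. The call was lost without biotin variation -DMS replicate 2 (edgeR adjusted p = 0.0529) and without standard +DMS replicate 2 (0.0517), among 14 alternative fits. OS06T0714700-00 had 77.7 ± 20.3 CPM in the standard libraries and 287 ± 80.9 CPM in the biotin variation (SD over 4 libraries each). It rose by 2.00 on the log2 scale (SE 0.435; adjusted p by edgeR 0.0137). Its call was lost in 4 of 14 alternative fits, among them the fit without a filter on low counts (edgeR adjusted p = 0.0856).

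Among the 10 most abundant members 2 were called. OS05T0227600-00 was lower in the biotin variation, with 851 ± 406 CPM beside 2243 ± 997 in the standard libraries (SD, n = 4 each) and a change of -1.32 on the log2 scale (SE 0.307; adjusted p by edgeR 0.0177, lost in 2 of 15 alternatives). OS07T0673550-00 was higher, with 2334 ± 317 beside 1153 ± 216 CPM and a rise of 1.13 on the log2 scale (SE 0.269; adjusted p by edgeR 0.0184). That call was lost in 8 of 15 alternative fits. OS07T0673550-00 was also at 5532 CPM in biotin only and 3180 in Ex Taq, both above the highest of the 4 biotin variation libraries, 2764, so its highest level was in a library with added biotin and no streptavidin. OS05T0227600-00 had 2492 CPM in biotin only. With 1 biotin only library these values have no replicate. The members ranked 9 and 10 were called in none of the 5 comparisons. OS01T0791033-00 had 1681 ± 445 CPM in the standard libraries and 835 ± 219 in the biotin variation (SD over 4 libraries each), which is -0.89 on the log2 scale with an adjusted p by edgeR of 0.0854. OS12T0115000-00 had 902 ± 201 and 983 ± 178 CPM (SD over 4 libraries each), with its highest level, 1405 CPM, in Circligase and its lowest, 379 CPM, in Ex Taq.

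Circligase joined the adapter in 1 library, which has no replicate and no custom-primer reading. In the fit of all libraries it was assumed to vary like the replicated kinds. Against the standard -DMS libraries 4 members were higher (2%, beside 0.183% of all transcripts tested) and 2 were lower (1%, beside 0.0524%) by edgeR. The median log2 change was -0.22 for members and -0.09 for all transcripts tested. The 4 that rose were OS02T0668350-00, OS06T0151850-00, OS01T0666101-00 and OS06T0199050-00. All are of the set of 5 above, which was chosen after its values in these libraries were seen, so this is no separate result. OS06T0151850-00 and OS01T0666101-00 are a near-equal pair whose counts are nearly the same numbers. OS02T0668350-00 lay just past the limit of 0.05 from both, with dissimilarities of 0.0521 and 0.0527. Calls of these transcripts may therefore not be separate, and whether reads were shared was not tested. OS02T0668350-00 had 1123 counts in Circligase and 101 and 160 in standard -DMS, or 9446 CPM beside 840 ± 224 (SD, n = 2). It rose by 3.50 on the log2 scale (SE 0.533, edgeR adjusted p = 0.00382). OS06T0151850-00 had 1021 counts beside 89 and 146, a rise of 3.52 on the log2 scale (SE 0.525; adjusted p by edgeR 0.00382).

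These members varied among the other -DMS libraries as well. OS02T0668350-00 stood at 4201 CPM in Ex Taq, 3187 in low RT denaturation, 1670 in biotin only, 1561 in low RT reaction and 578 in agarose. When the 7 untreated libraries purified by PAGE after reverse transcription and ligation and ligated with T4 DNA ligase formed the control group, among them agarose, which lacks only the final PAGE, no member was called for Circligase, and edgeR adjusted p for OS02T0668350-00 and OS06T0151850-00 were 0.0912 and 0.0877. The fifth of the set, OS06T0163450-00, was set apart by Circligase. It followed OS02T0668350-00 in the other 13 libraries, with 99 and 101 counts in standard -DMS replicate 1, 1001 and 1053 in Ex Taq and 569 and 618 in low RT denaturation, but had 302 counts beside 1123 in Circligase. The dissimilarity of both transcripts was 0.134 over 14 libraries and 0.0254 without Circligase.

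The members that fell were OS08T0387300-00, with 1 count in Circligase beside 146 and 137 in standard -DMS, and OS08T0188151-00, with 0 beside 38 and 70. The first was 100.1-fold lower by pooled CPM, with an exact counting interval of 17.8 to 3968 (edgeR adjusted p = 0.0177). It was 69.3-fold lower without standard -DMS replicate 1 and 172-fold lower without replicate 2. It was also low in low RT reaction, with 10 counts, and reached 640 in biotin only. The second was at least 13.3-fold lower when Circligase is set to 3 counts (edgeR adjusted p = 0.0184), and had 11 to 56 counts in the other 5 libraries that changed a step. Against the 7 controls neither was called. Beyond the calls, the Circligase level was above all 7 of those libraries in 49 members (24.5%, beside 18.4% of all transcripts tested) and below all 7 in 45 (22.5%, beside 16.9%). It was below 1/4 of the lowest of the 7 in 10 members (5%, beside 2.4%) and above 4 times the highest in 0 (beside 0.262%).

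**Figure D5:**
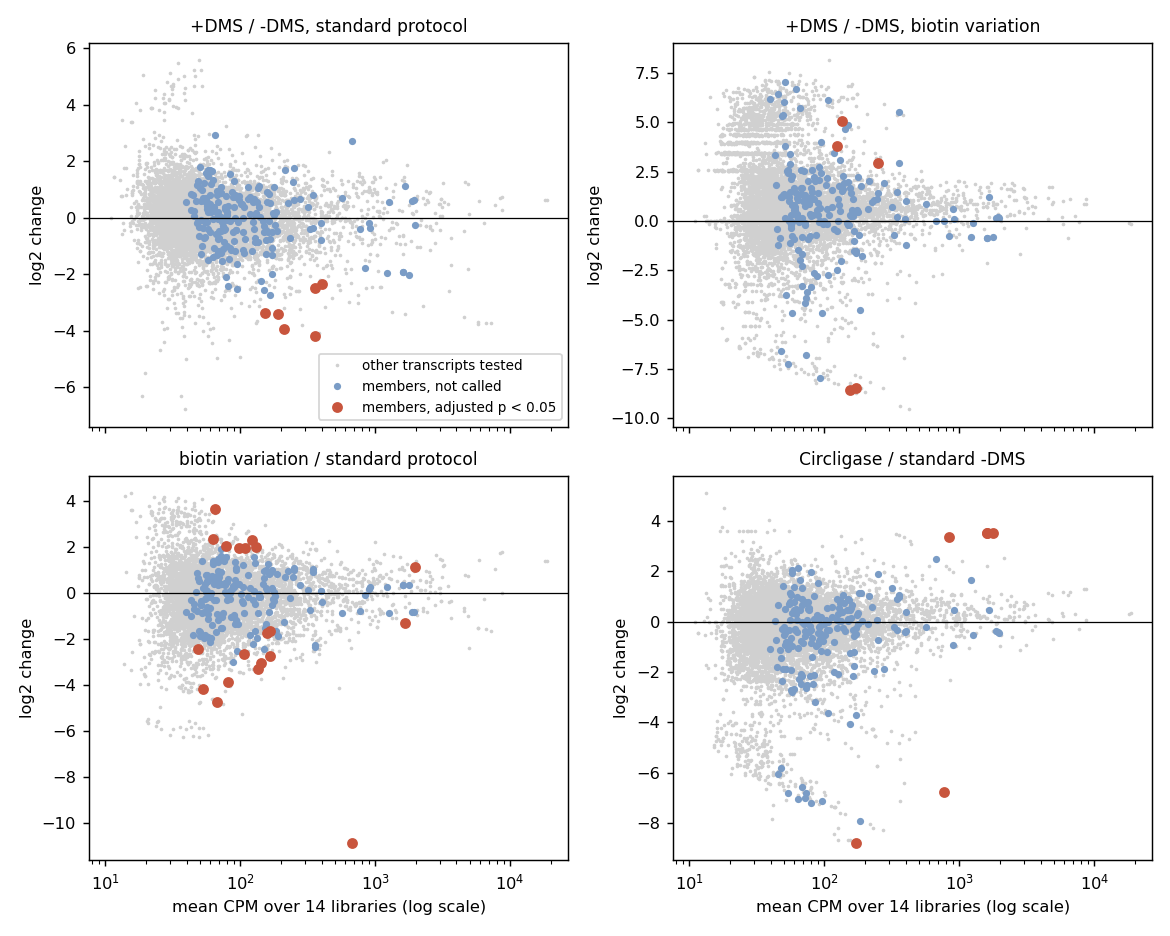
Log2 change (vertical axes) against mean CPM over the 14 libraries (horizontal axes, log scale) for the 4 comparisons named in the panels; grey points are other transcripts tested, blue points members not called and red points members with an edgeR adjusted p under 0.05. Called members number 6 for DMS in the standard protocol, 5 in the biotin variation, 20 for the biotin variation against the standard protocol and 6 for Circligase, and values for transcripts with a group at 0 depend on the fit and are not bounds.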

How the data were processed

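The authors deposited raw counts of reads per transcript, in whole numbers, with a separate table for each sequencing primer; libraries were assigned from column names and labels. Cutadapt and Bowtie2 are listed, with no version, in the submitters' processing notes. Not given in the sources used here are reference, annotation, counting rule and how reads with several matching transcripts were treated. The 27 samples are 14 libraries, and a library read with both primers counted once.

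Tests used edgeR 4.0.16 on transcripts that reached 10 counts in 2 or more fitted libraries (quasi-likelihood test, TMM factors, library size as the sum of the transcripts tested, Benjamini-Hochberg adjustment over all of them, threshold 0.05) in R 4.3.3 with limma 3.58.1. DMS, its difference between protocols and Circligase used all 14 libraries with a mean per kind (4 residual degrees of freedom); the biotin variation used 8. Standard errors are the log2 change over the square root of F. DESeq2 1.42.0, other scalings and filters, custom-primer counts, a replicate block and leaving out each library were alternatives, and the pipeline was tested on simulated data. Same-numbered replicates did not deviate together in every pair of groups (r from -0.07 to 0.17), so the block was not used in the main fits.

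Members, lists and tests were chosen with earlier results of these data known. Named transcripts are the 10 most abundant members, up to 2 per direction and comparison among those without overlap whose mean reached 20 counts in either group, examples from the largest groups of near-equal counts and the extremes of the primer ratio; others are marked. Gene names matched 0 of 200 members, so tissue markers and annotation classes could not be applied. CPM are scaled by TMM factors; shares and primer ratios use plain totals. Low totals limit precision, and 1 locus is not reported here.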

Additional observations from a re-analysis of the deposited data

Results flagged for a closer look

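The DMS effect on OS08T0468700-00 differed between protocols in a test of the difference itself. Its log2 change with DMS in the biotin variation minus that in the standard protocol was 9.71 (SE 1.81, edgeR adjusted p = 0.0228). Its counts were 0 and 0 in biotin variation -DMS, 3 and 6 in biotin variation +DMS, 53 and 106 in standard -DMS and 7 and 5 in standard +DMS. It was the only member that passed, among 18 transcripts in the whole table. Over the 16 alternative fits the edgeR or DESeq2 adjusted p ran from 3.79e-04 to 0.359, and 7 did not pass. Its counts are near-equal to those of OS08T0468100-01 and OS08T0468100-02.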

How the results depend on the processing

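Numbers of called members depended strongly on single libraries and on the filter, and the cause was not tested. The share over all transcripts is not set beside the counts below, so they describe the fits and not the members. For DMS in the standard protocol (6 members) there were 15 with DESeq2, 10 with relative log expression, 10 with library totals alone, 14 with a minimum of 50 counts, and 0 to 6 when a library was left out. For DMS in the biotin variation (5) there were 3 with the 8 replicated libraries, 8 with custom-primer counts (8 higher, 0 lower), 0 with a minimum of 50 counts, 9 without a filter, and 0 to 20. For the difference (1) there were 0 with the 8 replicated libraries, 4 with DESeq2, 2 with custom-primer counts, 0 with a minimum of 50 counts, 3 without a filter, 0 with the replicate block, and 0 to 11; without standard -DMS replicate 1 it was 11. For the biotin variation (20) there were 42 with DESeq2, 34 with relative log expression, 35 with custom-primer counts, 6 with a minimum of 50 counts, and 5 to 56; without a filter 2 were higher and 18 lower. For Circligase (6) there were 0 against the 7 untreated libraries with PAGE after reverse transcription and ligation and 7 when either standard -DMS library was left out.

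With the replicate number as a block, in 8 libraries, 4, 6, 0 and 18 members were called in the first 4 comparisons; Circligase has 1 library. The labels do not say whether same-numbered libraries are paired, and the correlations cannot settle it. The correlation of deviations was 0.171 for standard libraries with and without DMS and -0.0699 to 0.00557 for the other pairs of groups.

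The median share was 3.91% for the top 400. Members below 1/16 with the custom primer were 12; those below 1/8 (19) were 18 to 20 when a library was left out. Members in groups of near-equal counts were 95 at a limit of 0.10; at 0.05 (21) they were 21 to 28 when a library was left out. A limit of 0.10 on the library patterns, chosen after seeing the data, left 7 low members in them, and 0.20 left 12. For the 19 tested values of named transcripts, 169 of 227 recomputed values kept direction and side of the threshold, 54 no longer passed, 4 newly passed and 0 reversed. Depth limits single transcripts most in biotin variation -DMS replicate 1.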
